A study of Homo sapiens with 4 samples.

Results

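The regions described here are the rows of 2 count tables whose nearest gene is a small nucleolar RNA or a Cajal body RNA: the Gene Name starts with SNORA (box H/ACA), SNORD (box C/D) or SCARNA, and the row is not annotated as intergenic. They number 20979 of 2310971 rows in the Input table, with 431 Gene Names, and 29164 of 3814162 rows in the J2 table, with 454 Gene Names. Together the tables hold 467 such names of 26754 in all, 168 SNORA, 271 SNORD and 28 SCARNA. The counts of the rows were summed per name, and a name with its sum is called a member below. The cells were NCI-H1944, a lung adenocarcinoma line labelled wild type. They received either DMSO or 100 nM BAY-1217389, which inhibits the spindle checkpoint kinase MPS1 (MPS1i), for 48 h and then grew for 24 h without it. RNA from 10% of the lysate is the Input, and RNA pulled down from the rest with J2, an antibody to double-stranded RNA, is the J2 sample. Each of the 4 combinations of treatment and fraction holds 1 library, so every comparison is between libraries and has no replicate check. In such bulk libraries, fewer cells of a kind and less RNA per cell cannot be told apart. Where 4 read counts follow a name below, they stand for Input with DMSO, Input with MPS1i, J2 with DMSO and J2 with MPS1i. The label of the regions did not hold in the data: almost none of these reads lay on the small RNAs themselves, and the rows are therefore treated as regions named after them.

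Box C/D RNAs guide 2′-O-methylation and box H/ACA RNAs guide pseudouridylation, mostly of ribosomal RNA, while SCARNAs do the same for spliceosomal RNAs in Cajal bodies. Most are cut out of the introns of host genes, many of which make ribosomal proteins or are non-coding hosts such as the SNHG genes. The mature RNA folds on itself: box C and box D pair into a kink-turn, and an H/ACA RNA forms hairpins separated by the H box, with the ACA box close to its 3′ end. J2 binds long stretches of RNA duplex with little regard to sequence, and such duplexes can come from intronic repeats or from transcription of both strands.

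Of the 449 small RNAs of these names in GENCODE 29, rows touched 7 on their own strand in Input and 5 in J2, each by exactly 1 base. None was covered to 90% of its length. On the opposite strand, rows touched 326 of the 449 in Input and 331 in J2, and covered at least 90% of 310 and 298. A further 98 small RNAs are in RefSeq (GRCh38.p14) but not in GENCODE 29, and of these the own-strand rows touched 42 and 38 and covered 24 and 24 to at least 90%. On the own strand, the counted regions thus reached at most 1 base into any small RNA of the GENCODE annotation and ran through some of those that only RefSeq lists. The sequences below are the reference sequences of 3 small RNAs whose single counted base is shown in capitals, from GENCODE 29 (GRCh38). SNORA74D lies at chr5:139276180-139276320 (+), SNORD4A at chr17:28722582-28722653 (+) and SNORA84 at chr9:92292461-92292593 (-).
SNORA74D: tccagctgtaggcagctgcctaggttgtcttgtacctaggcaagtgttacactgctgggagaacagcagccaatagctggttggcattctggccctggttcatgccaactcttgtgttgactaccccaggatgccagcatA
SNORD4A: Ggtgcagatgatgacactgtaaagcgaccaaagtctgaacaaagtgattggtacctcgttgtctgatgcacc
SNORA84: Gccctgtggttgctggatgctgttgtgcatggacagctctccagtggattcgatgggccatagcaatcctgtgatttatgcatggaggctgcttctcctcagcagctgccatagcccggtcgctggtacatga
The J2 row that holds base 141 of SNORA74D, in the shared MATR3 and SNHG4 intron, had 1564 reads in DMSO and 386 in MPS1i; the longer RefSeq model of this RNA shares 4 bases with it. The J2 row that ends on base 1 of SNORD4A, in RPL23A, had 254 and 73, and the Input row that meets base 1 of SNORA84, in IARS, had 38 and 30. All 3 rows lie next to the small RNA, in a host intron.

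Several members that led a comparison are shown next, with the box motifs in capitals, because the counts printed under their names lie elsewhere. They are SNORA47 at chr5:77080434-77080571 (-), SNORA24 at chr4:118279190-118279320 (+), SNORD109B at chr15:25278343-25278409 (+), SNORD6 at chr11:93731502-93731574 (-), SNORD24 at chr9:133349396-133349470 (+) and SNORD1A at chr17:76561634-76561705 (+).
SNORA47: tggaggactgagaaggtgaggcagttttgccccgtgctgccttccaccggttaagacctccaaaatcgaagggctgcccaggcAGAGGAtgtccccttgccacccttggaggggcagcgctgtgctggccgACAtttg
SNORA24: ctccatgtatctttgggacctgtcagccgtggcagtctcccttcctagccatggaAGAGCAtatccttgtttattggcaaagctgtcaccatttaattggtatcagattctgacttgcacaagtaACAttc
SNORD109B: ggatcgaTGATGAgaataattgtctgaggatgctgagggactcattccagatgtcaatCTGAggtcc
SNORD6: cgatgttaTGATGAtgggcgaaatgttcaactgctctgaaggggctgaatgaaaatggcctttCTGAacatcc
SNORD24: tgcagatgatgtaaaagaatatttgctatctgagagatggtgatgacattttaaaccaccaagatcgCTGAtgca
SNORD1A: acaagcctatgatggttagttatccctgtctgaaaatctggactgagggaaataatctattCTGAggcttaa
Capitals mark the box C motif TGATGA within the first 20 bases and the last CTGA within the last 20 bases in SNORD sequences, and in SNORA sequences the ANANNA match nearest the middle and ACA within the last 8 bases, all searched on the RNA's own strand only. Among the 288 GENCODE SNORD sequences, 66.7% held TGATGA and 94.4% held CTGA in those windows, and among the 149 SNORA sequences 98.7% held ANANNA anywhere and 89.9% held ACA in its window. In SNORD24 and SNORD1A no TGATGA starts and ends within the first 20 bases. A match is a description of the letters only.

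Of the 10 member rows with the most reads in each table, 6 in Input and 6 in J2 shared exactly 1 base with an exon on their own strand. Any exon base was shared by 121 member rows in Input, 103 of them by exactly 1 base, and by 143 in J2, 128 of them by exactly 1. These 1-base rows were 0.491% and 0.439% of the member rows. In Input they held 31.1% of the members' reads with DMSO and 43.9% with MPS1i, and in J2 24.3% and 36.7%. Over all non-intergenic rows outside the mitochondrial genome the shares were 14.6%, 20.4%, 13.4% and 18.5%. Single rows weighed heavily in the members' shares. Of 39081 1-base reads in Input with DMSO, 17502 lay in a row at NQO1 and 9285 in a row at RPL4. With MPS1i these rows held 18652 and 6237 of 35905. In J2, rows at AGGF1 and NQO1 held 11615 and 7951 of 41593 with DMSO. With MPS1i they held 10873 and 6262 of 35856. The members' shares without these rows were not computed. The median 1-base row of the members had 41 reads in Input and 44 in J2, against 2 and 1 for rows lying wholly in a sense intron. How many of these reads come from spliced mRNA was not tested.

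The exon ends that meet the leading rows are shown for 6 genes, 30 coding bases each, with the shared base in capitals.
NQO1: Agtggcattctgcatttctgtggcttccaa
RPL4: cggaacaccattcttcgccaggccaggaaT
AGGF1: Tgaaattactgatagcaacaaaggtcggaa
TSR1: Gatgagagtagtgaagaagaggaagaatat
UBE3A: aaaattccaattacaaatgaaaacaggaaG
CCAR1: aagcagaagaagctgaggatgaagaagatG
The NQO1 bases are chr16:69711252-69711281 (-), those of RPL4 chr15:66500056-66500085 (-), of AGGF1 chr5:77061703-77061732 (+), of TSR1 chr17:2332330-2332359 (-), of UBE3A chr15:25355892-25355921 (-) and of CCAR1 chr10:68773070-68773099 (+), all on GRCh38. NQO1, a quinone reductase, gave the row with the most reads of all members in Input, counted under SNORD13H: 17502 reads in DMSO and 18652 in MPS1i, with 7951 and 6262 in the matching J2 row. That row alone was 96.2% of the Input sum of SNORD13H. RPL4, a ribosomal protein gene, gave 9285 and 6237 Input reads under SNORD18C with no such row under that name in J2. AGGF1, an angiogenic factor gene, gave 11615 and 10873 J2 reads under SNORA47, which is 98.4% of the J2 sum of that member. SNORA47 lies 19104 bp away on the other strand. UBE3A, a ubiquitin ligase gene, gave 3241 and 2768 J2 reads under SNORD109B, 77500 bp from the small RNA and again on the other strand.

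Across all places, most member rows lay wholly in a sense intron (16098 of 20979 in Input, 21832 of 29164 in J2). Next came rows that overlapped a gene only on the opposite strand, called antisense here, with 4210 and 6401 rows. Sense intron rows held 47.9% of the members' Input reads with DMSO and 34.1% with MPS1i, and 59.4% and 40.8% of their J2 reads. Rows with a base on a small RNA held 4.41%, 3.87%, 2.32% and 2.26%. From DMSO to MPS1i the CPM (reads per 1000000 of the library) of sense intron rows fell by 0.71 on the log2 scale in Input and by 0.80 in J2. Exon-sharing rows differed by 0.28 and 0.34, and antisense rows by -0.14 and 0.25. Over all non-intergenic rows outside the mitochondrial genome the values were -0.36 and -0.46 for sense introns, 0.40 and 0.31 for exon-sharing rows, and 0.23 and 0.50 for antisense rows. Among these 3 places sense introns had the lowest ratio in the members and in the whole tables. By class, sense introns named SCARNA had the lowest ratio, -0.87 in Input and -1.05 in J2, where they gave 869 CPM in DMSO and 420 in MPS1i. SNORA sense introns gave 3753 and 2206 CPM and SNORD sense introns 5761 and 3322 in the same libraries.

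**Figure D1:**
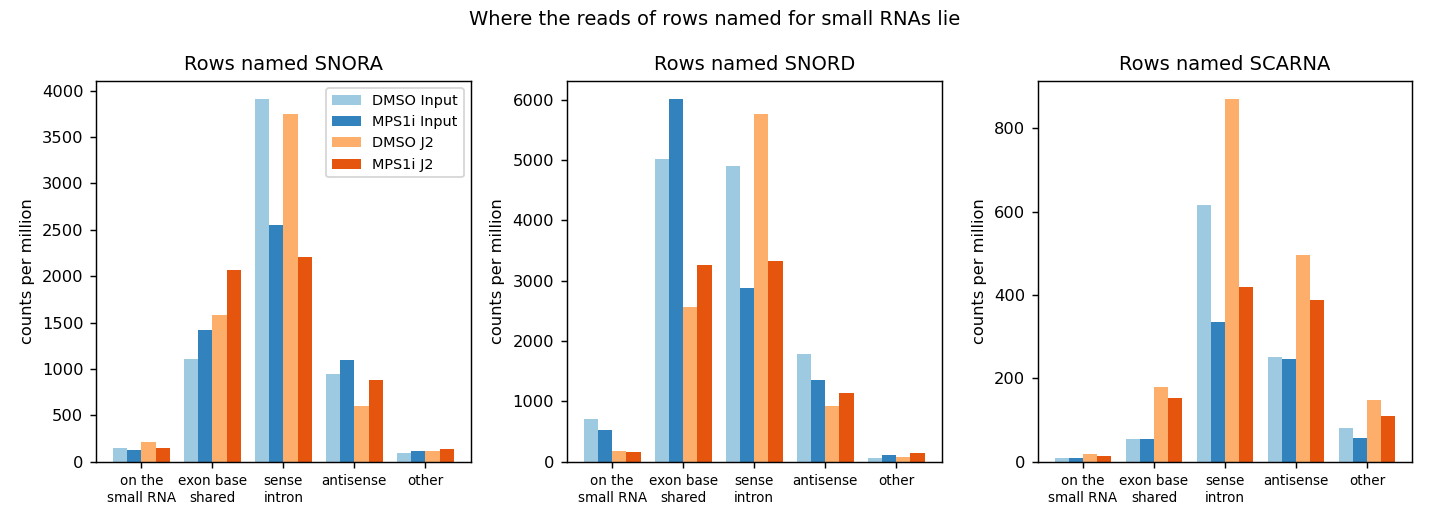
CPM (linear axis, bars from 0) of rows named SNORA, SNORD and SCARNA in the 4 libraries, split by where the row lies. Sense intron bars are lower in MPS1i than in DMSO in every panel, and the bars for rows on the small RNA are low, 709 CPM for SNORD in DMSO Input at the highest.

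Rows of the tables were paired where they overlapped by at least 90% of both, which gave 1602 pairs in 4 kinds. In 1538 pairs neither row shared an exon base, and their summed log2 ratio of J2 over Input was -0.38 in DMSO and -0.16 in MPS1i. In 23 pairs only the J2 row shared an exon base, and the ratio was 3.21 and 3.85. In 27 pairs both did (-1.61 and -1.86), and in 14 only the Input row did (-0.70 and -0.26). The AGGF1 pair shows how small the difference in position was. The Input row ends at 77061702, 1 base short of the exon, with 33 and 9 reads, and the J2 row ends at 77061703 with 11615 and 10873. At CCAR1, counted under SNORD98, the Input row starts at 68773100 with 8 and 5 reads and the J2 row starts at 68773099 with 801 and 874. A J2 over Input ratio of a member with such a pair therefore compares rows whose edges differ at the exon.

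**Figure D2:**
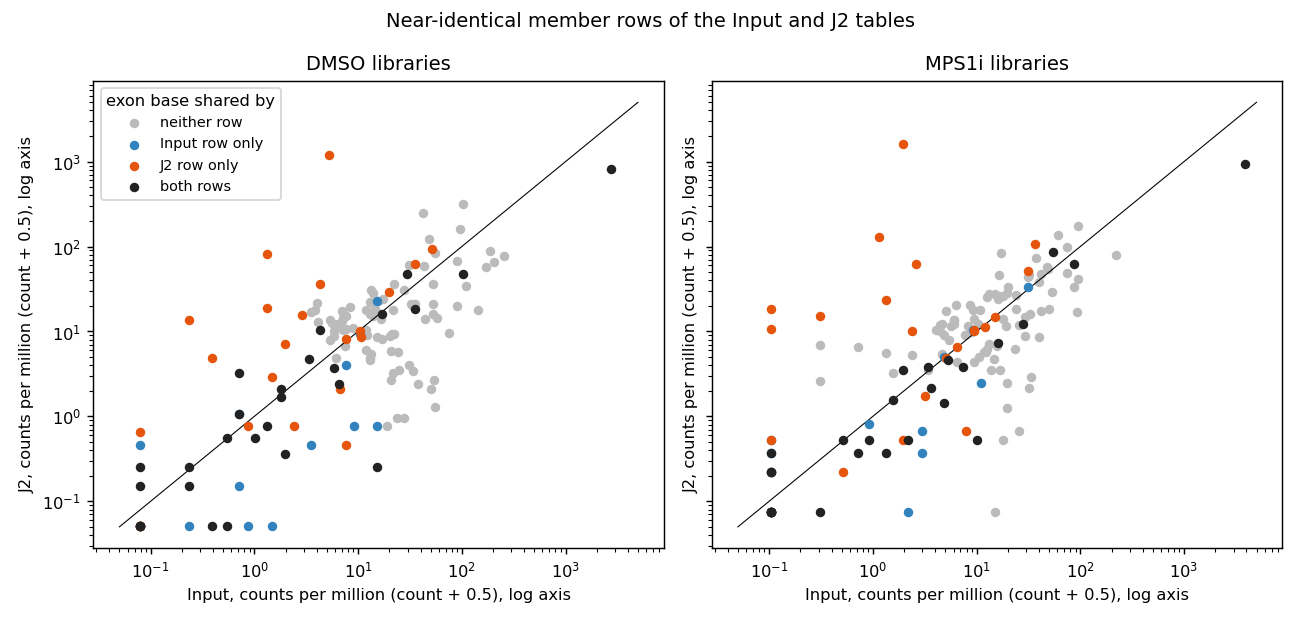
CPM of paired rows in Input (x) and J2 (y), both log axes with 0.5 added to each count, in the DMSO and MPS1i libraries. Points are the 64 pairs in which at least 1 row shares an exon base and the 84 other pairs with at least 200 reads in all. Pairs in which only the J2 row shares an exon base (orange) include the points farthest above the line of equal CPM.

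The rows that did cover a whole small RNA were few. SNORD133, a box C/D RNA of 216 bp at chr12:50456571-50456786 (+) in an intron of LARP4, had a covering row with 3824 reads in DMSO Input and 2036 in MPS1i Input, 292 in DMSO J2 and 149 in MPS1i J2. It was by far the largest of them in Input. SNORA94, in UQCRC1, had 577, 260, 196 and 197 reads. SNORA104 had 204, 202, 208 and 316, and SNORD157, in UBE2S, had 132, 59, 212 and 67. These rows were longer than the RNA they cover. SNORD133 lay in rows of 752 bp in Input and 1097 bp in J2, and SNORA94 (231 bp) in 882 and 824 bp. SNORA104 (139 bp) lay in 1736 and 1760 bp, and SNORD157 (68 bp) in 821 and 1083 bp. How many of the reads lay on the small RNA was not tested. The SNORD133 and SNORA94 rows were higher in Input than in J2 in both treatments. The SNORD133 row was at 599 CPM in Input and 29.8 in J2 with DMSO, and at 420 and 22.2 with MPS1i. SNORD157 was at 20.7 and 21.6 CPM with DMSO and at 12.2 and 10.0 with MPS1i. SNORD143 had no reads in an Input row of 96 bp and 231 and 288 in a J2 row of 1732 bp, so its rows differ in length as well. Summed over SNORD rows with any base on a small RNA, reads were 4527, 2520, 1698 and 1129, a log2 ratio of J2 over Input of -2.03 (95% interval -2.11 to -1.95) in DMSO and -1.63 (-1.73 to -1.52) in MPS1i. The SNORD133 row set that direction: without it, a choice made after seeing the data, the SNORD sums were 703 and 484 in Input against 1406 and 980 in J2 (0.38 and 0.55). For SNORA the same sums were 952, 601, 2101 and 991 (0.52 and 0.25), of which the SNORA74D row with its single base made up 1564 of 2101 in DMSO J2 and 386 of 991 in MPS1i J2. Kept to rows covering at least 90% of the RNA, SNORA gave 884, 553, 484 and 589 reads and ratios of -1.49 and -0.38. SCARNA had 61, 45, 175 and 86 reads on any base.

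Members were compared under 1 rule: at least 50 summed counts, a CPM ratio of 2-fold or more, and an exact 95% counting interval of the ratio that excludes 1. The interval covers counting error only. In Input, 283 members had enough counts; the rule called 10 higher with MPS1i and 59 lower, and the median log2 ratio was -0.44. Over all 14363 Gene Names measured, 25.6% were called, 11.9% higher and 13.8% lower, and the median was -0.15. Of the members, 3.53% were higher and 20.8% lower. In J2, 269 were measured, and 24 of them (8.92%) were higher and 59 (21.9%) lower; their median was -0.34. Over all 15262 names 32% were called, 15.7% higher and 16.4% lower, and the median was -0.11. The split of calls in J2 moved with the minimum count. With 20 counts 46 of 318 members were higher and 61 lower, and with none 66 and 64 of 422, with a median of 0.08. In Input the splits were 25 and 68 of 327 with 20 counts and 39 and 74 of 411 with none. Shares over all names at these minimums were not computed, so how the members compare with them there was not tested. Leaving out rows that share an exon base, a choice made after seeing the data, gave 11 higher and 67 lower of 271 in Input, where 11.9% and 15.4% of all names were, and 24 and 66 of 264 in J2, where 15.8% and 17.9% were. By class in Input, 3 SNORA of 109 were higher and 20 lower, 7 SNORD of 150 and 35, and 0 SCARNA of 24 and 4. In J2 the calls were 13 and 19 of 113 SNORA, 10 and 33 of 133 SNORD and 1 and 7 of 23 SCARNA. Medians were -0.34, -0.50 and -0.64 in Input and -0.18, -0.40 and -0.46 in J2. The class sums were called in neither direction: SNORA -0.23 and -0.20, SNORD -0.20 and -0.24, SCARNA -0.52 and -0.66.

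**Figure D3:**
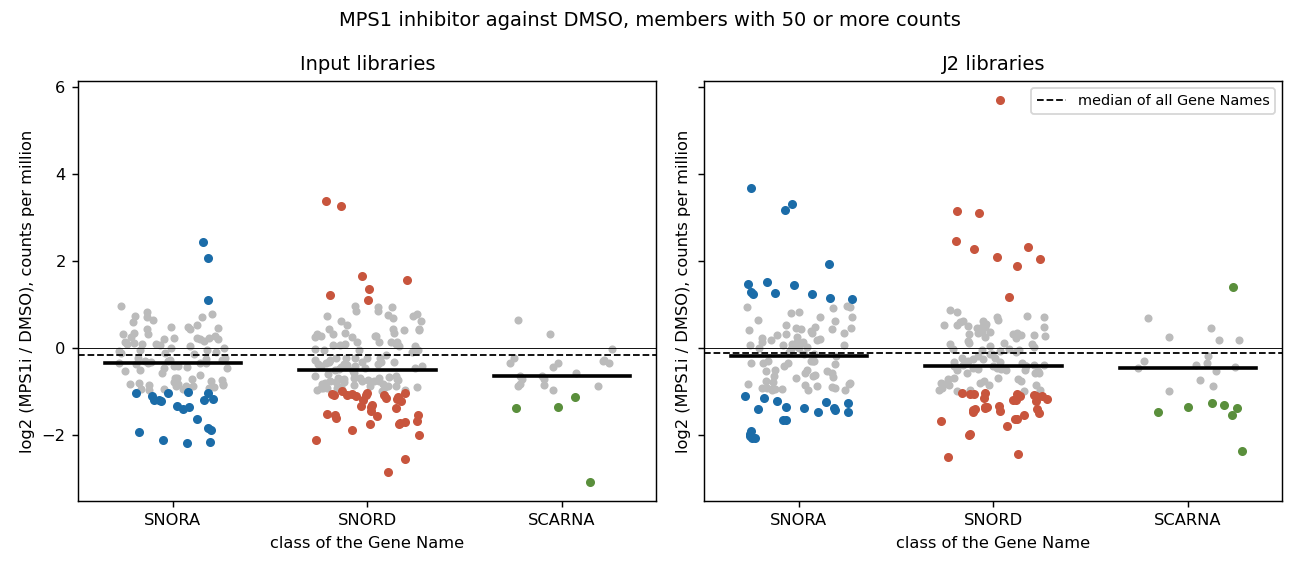
Log2 ratio of MPS1i over DMSO for each member with at least 50 counts, by class, in Input and J2. Coloured points were called, the thick bar is the class median and the dashed line the median of all Gene Names; medians of the 3 classes lie below the dashed line in both panels.

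SNORA90 led the members called lower in Input and was also called lower in J2. Its rows are introns of ACACA, the acetyl-CoA carboxylase of fatty acid synthesis, and gave 1923, 325, 4002 and 662 reads. The log2 ratios of MPS1i over DMSO were -2.17 (-2.34 to -2.00) in Input and -2.05 (-2.17 to -1.93) in J2. SCARNA21B, in DNAJC16 introns and opposite that gene, had 71, 6, 190 and 25 reads (-3.06 and -2.35). SNORA110, whose most-read rows lie opposite ERI3, had 270, 47, 575 and 106 (-2.11 and -1.89). All 3 were called lower with MPS1i in both fractions. SNORA36B, in RAB3GAP2, had 219, 37, 284 and 124 reads and was called in Input (-2.15), while J2 gave -0.64. SNORD70, which led those called lower in J2, lies in the introns of the box C/D core protein gene NOP58 and had 89, 21, 277 and 33 reads, with ratios of -1.66 in Input and -2.50 (-3.09 to -2.00) in J2. SNORA31B had 167, 48, 770 and 127 (-1.39 and -2.05), and SNORD19, in GNL3, had 31, 4, 183 and 23 and was called in J2 (-2.42), with too few Input reads to be measured there.

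SNORD77B led the members called higher in Input, with 54, 434, 172 and 1025 reads and log2 ratios of 3.39 (2.99 to 3.84) and 3.12 (2.89 to 3.36). Its most-read rows lie on no GENCODE gene of either strand. SNORA24 had 35, 147, 37 and 330 reads (2.45 and 3.69). The name belongs to an H/ACA RNA in the host SNHG8, but its most-read J2 row is 20421 bp long, opposite PRSS12 and 26810 bp away. SNORD19C, in GNL3, had 12, 91, 3 and 27 reads and was called in Input (3.27, interval 2.45 to 4.32). SNORA108, in ALPK2, had 14, 46, 33 and 44 (2.08 in Input). SNORA61, in J2, was 1 row of 3117 bp opposite the host SNHG12, with no Input row of that name and 18 and 114 J2 reads (3.18, interval 2.49 to 4.02). SNORD156 had 16, 28, 13 and 82 reads, called in J2 (3.16). SNORD6, in introns of TAF1D, had 33, 59, 1 and 53 reads; the J2 ratio rests on the 1 read in DMSO (5.70, interval 3.74 to 11.61).

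Among the members with the most reads, those led by exon rows were not called between treatments in Input: SNORD13H gave 18392 and 19171 reads there (0.46) and 11875 and 8375 in J2 (0.04). SNORA58, at an MRPL3 exon, gave 2136 and 1920 in Input (0.24), and SNORA50A, at CNOT1, gave 2226 and 1816 (0.10). SNORA58B, at UBAP2L exons, had 1258, 1127, 942 and 830 (0.24 and 0.37). Members read elsewhere were also without a call: SNORA30, opposite SRCAP, with 1597, 1333, 916 and 571, SNORA98, opposite UTRN, with 999, 536, 1383 and 894, and SNORD17, in SNX5, with 1384, 840, 2393 and 2312. SNORD12, in the non-coding host ZFAS1, gave 3424 and 901 reads in Input and was called lower (-1.53, interval -1.64 to -1.42), and 1524 and 578 in J2 (-0.85). Among SCARNA members SCARNA3, in COP1 introns, was called lower in both, with 469, 137, 1085 and 311 reads (-1.37 and -1.25), and SCARNA20, in and opposite USP32, had 452, 187, 1187 and 312 (-0.87, and -1.38 called in J2). SCARNA26B, opposite GON4L, had 281, 119, 950 and 224, and SCARNA23, in introns of the DNA polymerase gene POLA1, 462, 216, 683 and 190; both were called lower in J2 (-1.53 and -1.29). SCARNA10, read opposite and at an exon of the condensin gene NCAPD2, had 348, 103, 1867 and 650 and was called lower in Input (-1.35). SCARNA14, the most-read SCARNA member, had 1374, 828, 5929 and 2246 (-0.33 and -0.85); its leading row lies opposite DIS3L.

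**Figure D4:**
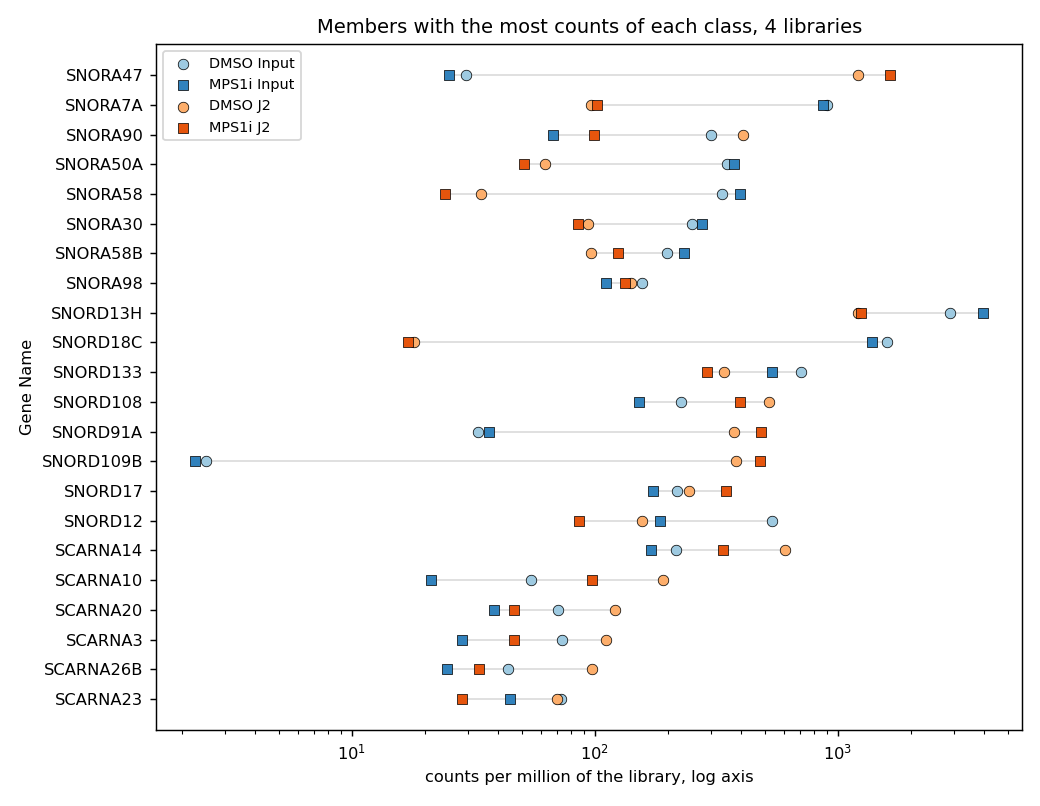
CPM (log axis) in the 4 libraries of the 8 SNORA, 8 SNORD and 6 SCARNA members with the most reads. SNORA47, SNORD91A and SNORD109B are far higher in J2 than in Input, and SNORA7A, SNORA58 and SNORD18C far higher in Input.

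The comparisons of J2 with Input use the same 4 libraries as those above, so they are not independent of them. For J2 against Input, 288 members were measured in DMSO, of which 50 were called higher in J2 and 80 lower, with a median log2 ratio of -0.02. Over all 14718 names 29.2% were called: 16.7% higher in J2 and 12.5% lower, and their median was 0.25. In MPS1i, 53 of 280 members were higher and 65 lower (median 0.15), against 16.2% and 11.4%, in all 27.6%, of 15014 names (median 0.23). Without exon-sharing rows the members gave 42 and 65 of 275 in DMSO, against 15.2% and 11.9% of all names, and 42 and 49 of 269 in MPS1i, against 13.8% and 10%. Mitochondrial rows were 24.3% and 20.2% of the Input counts and 0.608% and 0.836% of the J2 counts. With library totals that leave them out, 29 of 288 members were higher and 95 lower in DMSO, and 38 and 80 of 280 in MPS1i. The median of all names shifted by -0.39 and -0.31. The share of all names called under this scaling was not computed, so how the members compare with it was not tested. By class in DMSO, 19 SNORA of 114 were higher and 26 lower, 27 SNORD of 150 and 50, and 4 SCARNA of 24 and 4, with medians of 0.02, -0.09 and 0.63. The class sums were 0.01 for SNORA, -0.39 for SNORD and 0.76 for SCARNA in DMSO, and 0.04, -0.44 and 0.62 in MPS1i. The SNORA sum was below 0 under the scaling without mitochondrial rows (-0.38 and -0.28), under TMM (-0.12 and -0.14) and under DESeq2 factors (-0.05 and -0.09), and without SNORA47 it was -0.29 and -0.48. The SNORD sum was -0.21 and -0.027 without SNORD13H, and -0.10 and -0.029 without exon-sharing rows.

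The tables hold separate regions, so a member's sum can lack a region that the other table has. Of the 50 members higher in J2 in DMSO, the most-read J2 row had an Input row of the same name and strand overlapping at least 50% of both for 20, one under another name for 3 and none for 27. For the 80 lower members, starting from the Input row, the counts were 58, 1 and 21. In MPS1i they were 27, 2 and 24 of 53 higher members and 41, 2 and 22 of 65 lower ones. A ratio of a member without such a row compares sums over different regions. Only called members were matched. The share without a matching row among the other members and over all names was not computed.

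The members higher in J2 were led by 1-base exon rows. SNORD109B had 16 and 11 Input reads against 3741 and 3202 in J2, log2 ratios of 7.21 (6.55 to 8.06) in DMSO and 7.65 (6.88 to 8.72) in MPS1i, and it was still higher without exon-sharing rows (4.26 and 4.74). SNORA47 had 189 and 122 against 11843 and 11017 (5.35 and 6.02), and without such rows -0.35 and -0.23. SNORD82, at an exon of the nucleolar protein gene NCL, had 94 and 38 against 1100 and 958 (2.92 and 4.17), and -2.25 and -0.90 without them. SNORD91A, at TSR1, had 210 and 177 against 3645 and 3217 (3.50 and 3.71), and -0.38 in both without them. SNORD35A, at RPL13A, had 10 and 24 against 696 and 510, all of the J2 reads in the exon row. SNORA20, at an exon of the chaperonin gene TCP1, had 143 and 53 against 1374 and 1204 (2.64 and 4.03). Not all were exon rows. SNORD108, in the introns of SNHG14, the long host of imprinted snoRNAs, had 1438 and 739 in Input against 5082 and 2654 in J2 with no exon-sharing row (1.20 and 1.38). SNORA61 was called higher in J2 in MPS1i, but the Input row at its place carries another name, SNORA44, and had 34 reads in MPS1i against 114 in J2.

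The members lower in J2 were also led by exon rows whose exon base no J2 row of that name shared. SNORD24, at the last base of an RPL7A exon, had 933 and 843 Input reads and 0 and 1 in J2. Of the Input reads 927 and 823 lay in the exon row, which had no J2 counterpart, so no fold is given. SNORA15, at the chaperonin gene CCT6A, had 1541 and 1638 against 8 and 7 (-8.12 and -8.24), and SNORD18C 10201 and 6687 against 176 and 114 (-6.47 and -6.34). Without exon-sharing rows SNORD18C stayed lower (-2.99 and -2.44), on a row opposite RPL4 with 916 and 450 Input reads. Rows opposite a gene made up other members: SNORD10, opposite the translation factor gene EIF4A1, had 222 and 122 against 0 and 4, but the J2 row at the place of its leading row is named SNORA48 and had 39 and 41 reads against 199 and 112. SNORA64, opposite RPS2, had 729 and 314 against 9 and 15 (-6.88 and -4.81), and its leading row had a J2 counterpart of the same name, 714 and 310 against 9 and 10. SNORA7A, most of whose reads lie in 1 Input row of 6062 bp in a CAND2 intron and opposite RPL32, had 5757 and 4219 against 945 and 686 (-3.22 and -3.09).

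The change of J2 enrichment divides each member's J2 over Input ratio with MPS1i by the one with DMSO. Of 261 members with enough counts, 30 (11.5%) were called higher and 11 (4.21%) lower; the median log2 was 0.12. Over all 14984 names 16.2% were called, 9.03% higher and 7.14% lower, and the median was 0.01. Without exon-sharing rows the calls were 28 and 11 of 256 members, against 9.19% and 7.13% of all names. Calls by class were 13 higher and 5 lower of 107 SNORA, 15 and 6 of 131 SNORD, and 2 and 0 of 23 SCARNA. SNORD1A, in the non-coding host SNHG16, had 156 and 20 reads in Input and 75 and 73 in J2, a change of 3.04 (2.23 to 3.85): it was lower in MPS1i in Input (-2.54) and not called in J2 (0.51), and the Input row with 109 of its reads had no J2 counterpart. SNORA46, in CNOT1 introns, had 177 and 35 against 87 and 93 (2.57). SNORD96A, read mostly opposite RACK1, had 401 and 231 against 25 and 74 (2.49), and SNORA56, in and opposite DKC1, the pseudouridine synthase gene of H/ACA particles, had 25 and 9 against 19 and 51 (2.98). SNORD6 gave 4.48 (2.06 to 6.90), again on 1 read in DMSO J2. In the other direction SNORA59B had 550 and 446 in Input against 631 and 187 in J2 (-1.30). SNORD152, in SIPA1L3, had 478 and 266 against 1644 and 400 (-1.04), SNORA74B, in ATP6V0E1, 192 and 101 against 957 and 208 (-1.13), and SNORD41, in TNPO2, 44 and 26 against 165 and 35 (-1.32). SNORD35A, at its exon row, was -1.52 (-2.58 to -0.46).

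**Figure D5:**
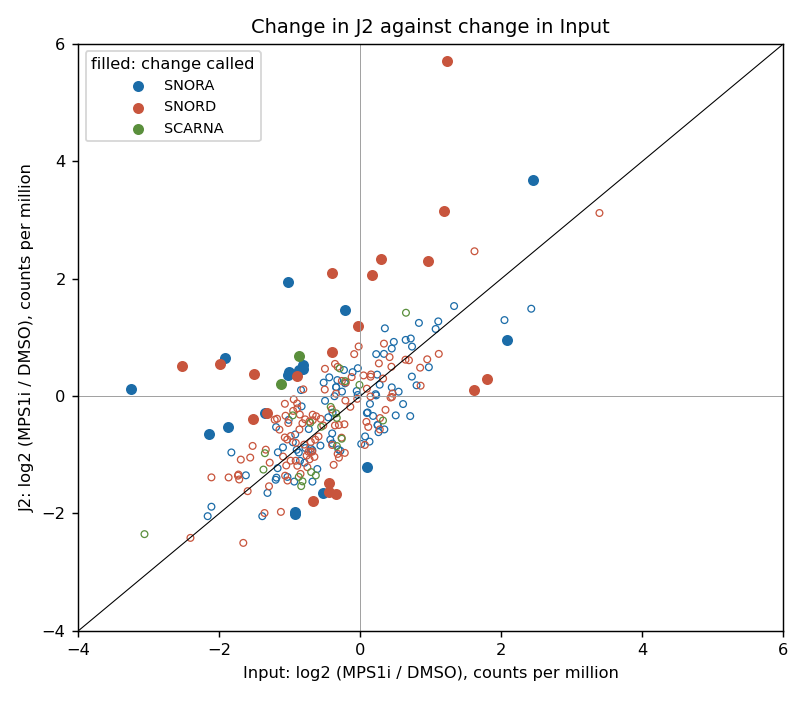
Log2 ratio of MPS1i over DMSO in Input (x) and in J2 (y) for the 261 members measured for the change of J2 enrichment, coloured by class. Filled points were called; 30 lie above the diagonal and 11 below it.

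Members with roles in pre-rRNA processing were few among the measured names. Of 15 listed, 5 had enough counts in Input, 1 of them called higher, and 2 in J2, 1 called lower; over all names 25.6% and 32% were called. SNORD3D, of the U3 family, had 18 and 41 reads in Input (1.56, interval 0.75 to 2.47) and 6 and 41 in J2, too few to be called. SNORA73B, of the E1 or U17 family, read in RCC1 introns, had 137, 54, 126 and 31 (-1.46 in J2). SNORD14E, in the heat shock gene HSPA8, had 297 and 328 in Input against 15 and 10 in J2 (-4.88 and -5.43), with no J2 counterpart of its leading row, and SNORD14B, in and opposite RPS13, 40 and 52 against 18 and 14 (-1.75 and -2.32). Of the 69 names of the imprinted clusters SNORD113 to SNORD116, 4 were measured in Input and 5 in J2, and SNORD116-6 was the 1 called in Input, with 18 and 44 reads (1.66, interval 0.87 to 2.57). SNORD14C, read opposite HSPA8, had 569, 238, 666 and 366 and was not called between treatments. SNORD116-23, in SNHG14, had 34, 18, 177 and 167, higher in J2 in DMSO (1.75) and in MPS1i (2.71), and SNORD116-5 had 8, 22, 59 and 49, called higher in J2 in DMSO (2.19), where the Input row matching its leading J2 row is named SNORD116-11.

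The protein genes of these particles were summed in the same way over their own non-intergenic rows. Outside the mitochondrial genome, only 6733 of 1469882 such rows in Input and 8689 of 2205739 in J2 shared any exon base. How far these sums reflect mRNA was not tested. Intron rows counted under a small RNA, such as those of SNORD70 in NOP58, are not in the sum of the host gene. Between treatments, 25.6% of all names were called in Input and 32% in J2. Of 8 core protein genes, 5 were measured in Input and 3 in J2, with 0 higher and 1 lower in each. NOP58, the box C/D scaffold, had 102 and 19 reads in Input and was called lower in MPS1i (-2.00, interval -2.82 to -1.31). SNU13, the kink-turn binding protein, had 941 and 277 in J2 (-1.21). The methyltransferase gene FBL was lower in J2 than in Input, 205 and 114 against 35 and 10 (-3.15 and -3.91). It was the 1 core gene called of 4 measured in each treatment, where 29.2% and 27.6% of all names were called. Of 10 assembly factor genes, 8 were measured in Input with 0 higher and 1 lower, and 9 in J2 with 0 and 3. NUFIP1 was lower in MPS1i in both, with 171, 42, 558 and 88 reads (-1.62 and -2.11). In J2 so were ZNHIT6, 659 and 215 (-1.07), and RUVBL2, 64 and 10 (-2.07). For J2 over Input, 2 assembly genes were called higher and 1 lower of 9 in DMSO, and 1 and 2 of 8 in MPS1i. RPAP3 was lower in J2 than in Input, 249 and 207 against 123 and 128 (-1.63 and -1.16). PIH1D1, 140 and 71 against 151 and 154, had a change of enrichment of 1.15 and was the 1 called of 9. Of 7 Cajal body genes, 5 were measured in J2 with 0 higher and 2 lower. COIL, the coilin gene, had 157 and 35 there (-1.60) and USPL1 490 and 154 (-1.12). None of the 4 measured in Input was called between treatments. NOLC1 had 663 and 550 in Input against 234 and 250 in J2 (-2.12 and -1.60), the 1 Cajal body gene called of 5 and of 4 measured. Of 46 host genes, 20 were measured in Input with 2 higher and 3 lower, and 15 in J2 with 4 and 4; the shares called over all names were 25.6% and 32%, so the Input count is near the background. SNHG8 had 16, 67, 22 and 152 reads (2.43 and 3.31), RPL13A 252, 66, 969 and 231 (-1.53 and -1.52), and RPL21 134 and 26 in Input (-1.95). In J2 the ribosomal protein gene RPL13 had 78 and 18 (-1.54) and the mitochondrial chaperone gene HSPA9 135 and 26 (-1.81).

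The libraries held 6381610, 4844956, 9793355 and 6697479 reads, and the members took between 1.46% and 1.97% of each. Summed over non-intergenic rows, 7 to 9 of 10 lung epithelium markers had reads, KRT8 most with 3639, 4133, 293 and 288. Their sum was 637 CPM with DMSO and 946 with MPS1i in Input, and 96.2 and 96.6 in J2. Only 9 of the 10 names had a non-intergenic row. NKX2-1 had none, so its RNA was not measured. Few rows share an exon base, so a marker without reads is not shown to lack mRNA. Of 7 fibroblast markers 3 to 5 had reads, summed at 2.86 to 44.9 CPM, higher in both MPS1i libraries, mainly by FAP (21, 149, 23 and 281 reads). Leukocyte markers were at 3.88 to 12.8 CPM, also higher in MPS1i. The part of these markers in the results above was not tested.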

How the data were processed

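The deposited files are 2 tables of raw counts per stranded region on GRCh38, 1 for Input and 1 for J2; the submitters' processing notes name STAR, HOMER, cutadapt, Trimmomatic, featureCounts and Trim Galore without roles or versions. How regions were called and how multiply mapped or duplicate reads were treated is not given in the sources used here. Coordinates were read as 1-based and closed, since the length column equals end minus start plus 1 in all 2310971 and 3814162 rows; the 1-base exon overlaps lie at both ends of exons, 68 at the higher and 35 at the lower coordinate in Input, 75 and 53 in J2. Counts were summed per Gene Name over non-intergenic rows and scaled to the library total. Rows were placed against GENCODE 29 exons and genes and against small RNAs of GENCODE 29 and RefSeq (GRCh38.p14); RefSeq strands missing from GENCODE were taken from the distance column. The call rule (50 counts, 2-fold, exact Clopper-Pearson 95% interval) was run on simulated Poisson counts with planted changes. Those counts hold no replicate variation and no duplicate reads, so that run cannot show how the rule behaves under either. Log2 ratios add 0.5 to each count; the change of J2 enrichment uses a delta-method 95% interval, 50 J2 and 20 Input counts. Scaling factors came from edgeR 4.0.16 (TMM) and DESeq2 1.42.0 in R 4.3.3, with no test from either; the rest used Python 3.11.15, pandas 2.3.3 and scipy 1.17.1. Intervals cover counting error only and treat reads as independent. PCR duplicates are not independent, so the intervals are too narrow where duplicates remain. Named members were the most-read of each class, those called with the interval bound farthest from 1 (up to 5 in each direction and comparison), measured members of 2 snoRNA lists, and, from 4 protein and host lists, a part of the genes called. The members and lists were chosen with earlier results of these data known. Rows were matched between tables by strand and an overlap of at least 50% of both. The alternatives are described in the closing section.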

Additional observations from a re-analysis of the deposited data

Results flagged for a closer look

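Intergenic rows, which the sums above leave out, also carry these names. Those nearest a SNORD gene held 1394 reads in DMSO Input, 2412 in MPS1i Input, 3391 in DMSO J2 and 4913 in MPS1i J2. They were higher in MPS1i than in the DMSO control by 1.19 on the log2 scale (95% interval 1.09 to 1.28) in Input and by 1.08 (1.02 to 1.15) in J2, while the non-intergenic SNORD sums were -0.20 and -0.24. Intergenic rows nearest SNORA genes gave 0.61 and 0.53 and those nearest SCARNA genes 0.53 and 0.80, under the 2-fold rule. The same ratio over all intergenic rows was not computed, so whether the rise is particular to these names was not tested.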

How the results depend on the processing

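No paired analysis was possible because each group holds 1 library and the labels carry no replicate numbers. With 1 library per group no result has a replicate check, and depth limits members under 50 counts. The 3 other scalings reversed the call of no named member, and each comparison's count of called members stayed within 1.5 times. Called members, in the order MPS1i over DMSO in Input, the same in J2, J2 over Input in DMSO, the same in MPS1i, and change of enrichment, were 69, 83, 130, 118 and 41. The members measured for them numbered 283, 269, 288, 280 and 261. With no minimum count the first, second and last counts called were 113 (39 higher, 74 lower) of 411 measured, 130 (66 and 64) of 422 and 70 (56 and 14) of 392. Kept to rows on the small RNA they were 1, 5, 14, 12 and 1, of 13, 15, 20, 18 and 8 measured. Without each member's most-read row, J2 over Input gave 74 of 226 measured and 60 of 203. With each row counted as at most 1 read the members called were 28, 22, 8, 2 and 0. Fewer members were measured there: 103, 135, 135, 85 and 132. Without exon-sharing rows, chosen after seeing the data, the members called were 78, 90, 107, 91 and 39, of 271, 264, 275, 269 and 256 measured. Shares over all names were computed only for the main rule and for this setting.

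Reversals of named members concern J2 over Input. Without the most-read row, DMSO values were -0.072 for SNORA47, 0.39 for SNORA7A, 1.45 for SNORD133, 1.52 for SNORD13H and -0.045 for SNORD82, and MPS1i values were -0.12 for SNORA47, 0.67 for SNORA7A and 1.56 for SNORD13H. Without exon-sharing rows, DMSO values were -0.35 for SNORA47, 1.26 for SNORD13H, -2.25 for SNORD82 and -0.38 for SNORD91A, and MPS1i values were -0.73 for SNORA20, -0.23 for SNORA47, 0.30 for SNORA50A, 0.85 for SNORD13H, -0.90 for SNORD82 and -0.38 for SNORD91A. Kept to rows on the small RNA, SNORD13H was 2.03 and 1.27. With at most 1 read per row, SCARNA10 was -0.035 and SNORA47 -0.56 in DMSO. Rows covering 90% of the small RNA gave -1.49 for SNORA in DMSO and 1.11 for its change of enrichment, and 5.61 and 2.32 for SCARNA, the former on 1 read in DMSO Input (interval 3.68 to 11.51). Without the SNORD133 row, chosen after seeing the data, SNORD rows on the small RNA gave 0.38 and 0.55 in place of -2.03 and -1.63. Apart from the limit of 1 read per row, which caps counts, these settings leave out rows.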
